A study of Mus musculus with 21 samples.

Results

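Zfp is the mouse gene symbol for many zinc finger proteins. The members described here are all single-nucleotide variants (SNVs) outside intergenic sequence whose annotated gene symbol starts with Zfp followed by a digit. They came to 233 distinct sites in 69 genes, out of 19181 distinct sites in all lists. In embryonic stem cells (ESCs) there were 49 Zfp sites in 33 genes, called 188 times among 18125 calls. In tumours there were 185 Zfp sites in 47 genes, called 770 times among 73398 calls. Of the 69 symbols, 68 stood as symbols among the 416 Zfp genes of a RefSeq gene table and 1, Zfp607, only as a synonym. The symbol does not define a structural class, and a few Zfp genes encode zinc fingers of other types.

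Most Zfp proteins carry tandem C2H2 fingers, in which pairs of cysteines and histidines hold a zinc ion and each finger contacts a few bases of DNA. Many also carry a KRAB domain, which binds Trim28 and through it the H3K9 methyltransferase Setdb1, and these proteins silence retroelements in ESCs and guard imprinted regions (Zfp57, Zfp445) or silence murine leukaemia viruses (Zfp809). Many KRAB genes arose by repeated tandem duplication and lie in clusters of related neighbours. Zfp42, better known as Rex1, is a widely used marker of naive ESCs.

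Genomic DNA was labelled with the strain C57BL6X129S6F1 throughout, and 18 of 21 samples had an SNV list. ESC DNA was captured for exome sequencing, while the assay of the tumours was not settled, as given below. The ESC lists covered 5 culture conditions with 2 libraries each, numbered 3 and 5 in the labels. SL had 15% serum, and all conditions had leukaemia inhibitory factor (LIF, 1000 IU). The other media were serum-free N2B27 with 3 μM of the GSK3 inhibitor CHIR99021. To these 2iL added 1 μM of the MEK inhibitor PD0325901, A2iL added 1.5 μM of the Src inhibitor CGP77675, and LCDM added 2 μM Dim and 2 μM Mih, as the labels write them. These ESCs grew on feeder cells, and 2iL-F was the 2iL medium without feeders. How much feeder DNA a library held is not stated in the labels. The tumours came from ESC-derived mice obtained by tetraploid complementation, where the embryo proper stems from the ESCs put in. They were labelled 2iL-P9 (1 tumour), A2iL-P9 (3), A2iL-P14 (1), LCDM-P9 (2) and 2iL-F-P9 (1), and the labels do not say what P9 and P14 stand for. Tumour type and age of the mice are not in the labels.

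All ESC lists were called against 1 library of mouse embryonic fibroblasts (MEFs) and all tumour lists against 1 wild-type blood library. No ESC Zfp site had a dbSNP identifier, while 178 of 185 tumour Zfp sites had one. The ESC lists held at most 1 call in 10 kb, with a smallest gap of 11826 bp between Zfp calls of a library, against 1 bp in the tumours. Numbers in the ESC and tumour sets were therefore not compared. The tumour LCDM-P9 replicate 2 stood apart from the other 7 tumours in its calls, and results that rest on it are given with and without it. Header names of the 2iL-P9 and 2iL-F-P9 tumours differ from their labels, and whether the 2 were exchanged was not tested. Whether tumour DNA was read by exome sequencing, as in the title, or by ATAC-seq, as in the design text, was not settled. Nothing in the labels says that the libraries of a condition came from separate cultures, so p-values among them measure only the spread between these libraries.

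A pair of stretches shows where sites fell in sequence that could be read here, as printed from RefSeq promoter windows of GRCm38.p6 (plus strand, 5′ to 3′, the called base in capitals). The first holds the coding Zfp94 site of all 10 ESC libraries at chr7:24303626, in the window of the neighbouring gene model Gm51470, 224 bases before its start. The second holds the Zfp958 site of 7 tumours at chr8:4613312, 28 bases before the start from which its promoter window was drawn. The site lay inside the RefSeq span of Zfp958 (chr8:4613170-4632572), not upstream of the gene.
Zfp94 chr7:24303600-24303656: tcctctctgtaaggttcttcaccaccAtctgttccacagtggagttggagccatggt
Zfp958 chr8:4613282-4613342: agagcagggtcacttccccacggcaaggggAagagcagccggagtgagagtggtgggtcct
The Zfp94 change was A to G and left aspartate unchanged (D124D). The Zfp958 change was A to C (rs33565468), annotated as intronic, with an alternative-allele fraction of 0.34 to 0.531. This fraction is the alternative reads over the sum of alternative and reference reads.

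In ESCs, the number of Zfp calls did not differ among the culture conditions beyond the spread of the libraries. There were 16 and 19 Zfp calls in the SL libraries, 17 and 21 in LCDM, 20 and 18 in A2iL, 21 and 17 in 2iL, and 20 and 19 in 2iL-F. The mean was 17.5 ± 2.12 (SD, n = 2) in SL and 19.5 ± 0.707 in 2iL-F, with 2iL, A2iL and LCDM at 19 each, and the ranges of all conditions overlapped. An exact one-sided permutation test of the F statistic over the 945 partitions of the libraries gave p = 0.907. As a share of non-intergenic calls Zfp calls made up 1.47 to 1.96% of a library (exact permutation p = 0.958). The library median of the allele fraction averaged 0.128 ± 0.0134 in 2iL, 0.13 ± 0.00318 in SL, 0.146 ± 0.00884 in 2iL-F, 0.164 ± 0.0474 in LCDM and 0.175 ± 0.00707 in A2iL (n = 2 each). This difference did not pass the exact permutation test (p = 0.281), and passed it among calls of at least 20 reads (p = 0.0307) and without LCDM replicate 3 (p = 0.00635).

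The 49 ESC sites lay in 33 genes on 11 chromosomes, and 9 genes had more than 1 site. Zfp600 on chromosome 4 had 5 sites, Zfp607 had 4, Zfp772 and Zfp808 had 3, and Zfp106, Zfp111, Zfp729a, Zfp780b and Zfp964 had 2 each, while 24 genes had 1, Zfp114 first among them by symbol. Chromosome 7 held 18 of the 49 sites (36.7%), where 22.6% of RefSeq Zfp genes lie. Chromosome 13 held 12 sites (24.5%, against 9.38% of genes) and chromosome 17 held 1 site, against 11.3% of genes. No test was made of these shares, because neighbouring sites are not independent and the capture design is not at hand.

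**Figure D1:**
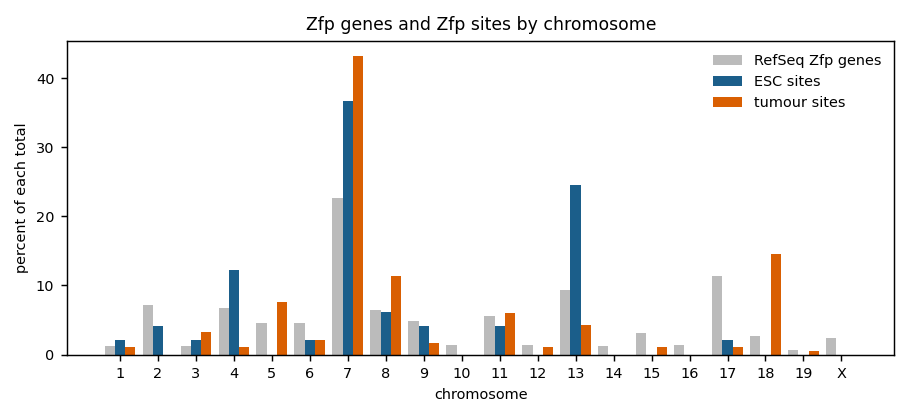
Percent of RefSeq Zfp genes (grey), of the 49 ESC Zfp sites (blue) and of the 185 tumour Zfp sites (orange) by chromosome. Chromosome 7 holds 36.7% of ESC sites and 43.2% of tumour sites, and chromosome 13 holds 24.5% of ESC sites.

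Runs of sites with gaps of at most 1 Mb and at least 3 genes formed 3 clusters in ESCs. The first, at chr7:27738388-28008352, held 8 sites in Zfp60, Zfp607, Zfp780b and Zfp850 and gave 3 or 4 calls in every library. The second, at chr13:67295751-67752510, held 7 sites in Zfp457, Zfp429, Zfp729b, Zfp729a, Zfp65 and Zfp85, which are 6 of the 17 RefSeq Zfp genes in that span. All its sites were coding (3 missense, 4 synonymous), and a library had 1 to 3 of them. The third, at chr7:24181154-24303626, held 5 sites in Zfp114, Zfp111, Zfp93 and Zfp94. Its allele fractions, with a median of 0.301, were above those of the first (0.121) and of the second (0.115). Segmental duplications, annotated copies of long stretches elsewhere in the genome, held 4 of the 7 sites of the second cluster and 0 of those of the other 2 clusters. These medians are descriptions, with no test.

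**Figure D2:**
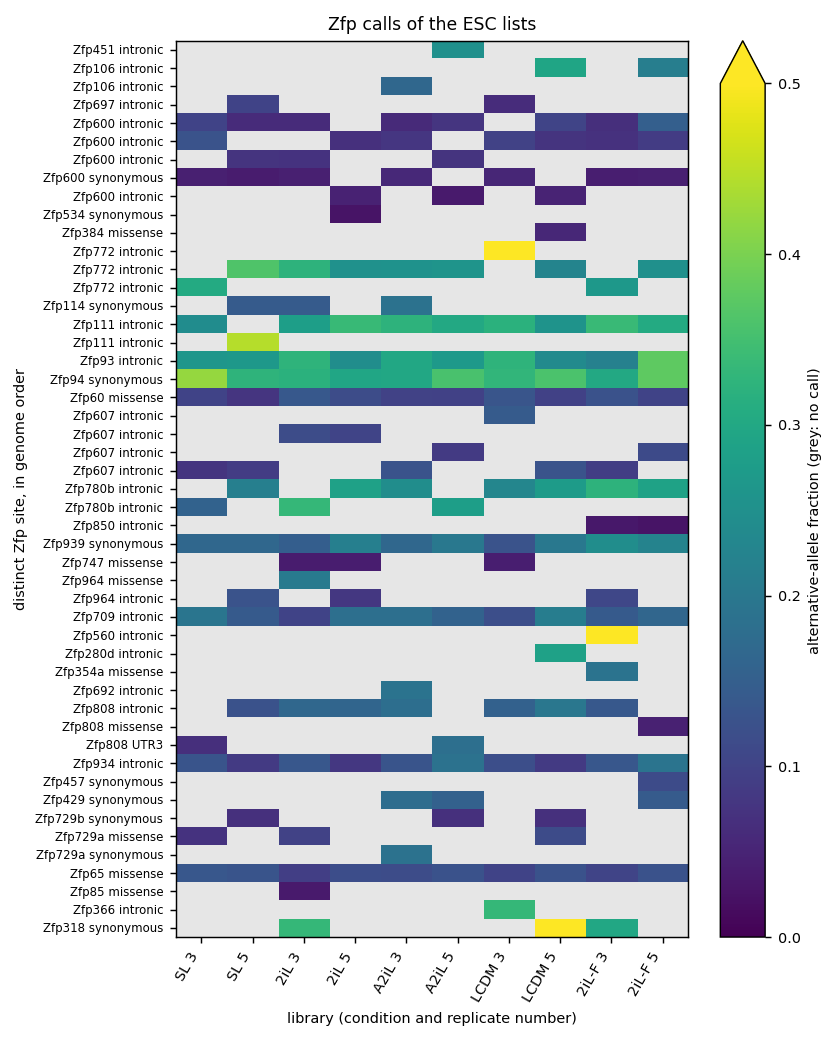
Alternative-allele fraction of every ESC Zfp call (colour, scale ending at 0.5) by site (rows, in genome order, labelled with gene and consequence) and library (columns, condition and replicate number). Grey marks no call. Sites of Zfp600, Zfp607, Zfp772, Zfp780b and Zfp808 alternate between libraries, and 7 sites are called in all 10.

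The 7 sites called in every ESC library included 2 missense changes, both at low and similar fractions. Zfp60 R40K (chr7:27738388) had fractions of 0.101 and 0.078 in SL, 0.131 and 0.097 in LCDM, 0.098 and 0.097 in A2iL, 0.137 and 0.116 in 2iL, and 0.125 and 0.101 in 2iL-F, at depths of 319 to 497 reads. Zfp65 E16A (chr13:67710967) had 0.135 and 0.129 in SL, 0.101 and 0.125 in LCDM, 0.116 and 0.125 in A2iL, 0.093 and 0.118 in 2iL, and 0.102 and 0.125 in 2iL-F, at 351 to 448 reads. At Zfp60 R40K each condition overlapped with others. At Zfp65 E16A both SL values lay above the other 8, which reached 0.125; this was noticed in the data and not tested. The MEF control had no alternative read of 369 at Zfp60 R40K, which allows a share of up to 0.813%, and 1 of 284 at Zfp65 E16A. The other 5 ubiquitous sites were synonymous or intronic. Zfp94 D124D ran from 0.295 to 0.42, the intronic Zfp93 site from 0.22 to 0.375, Zfp939 L21L from 0.128 to 0.245, and the intronic sites of Zfp709 and Zfp934 from 0.1 to 0.211 and from 0.081 to 0.192.

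Of the 49 sites, 7 were called in all 10 libraries, 25 in 2 to 9 and 17 in 1. The shares called in all and in 1 library were 14.3 and 34.7%, near the 17.6 and 34.3% of other non-intergenic sites. With at most 1 call in 10 kb, a library with one call cannot show a neighbouring one, whether or not it carried that variant. Sites within 10 kb of each other were joined into 35 loci, of which 10 had several sites, and a library never had more than 1 call in a locus. Of the 35 loci, 14 were called in all 10 libraries, 7 of them through different sites in different libraries, and 10 loci were called in 1 library. In Zfp600, the synonymous Q25Q at chr4:146190296 was called in 7 libraries and an intronic site 25 bp away in the other 3. Likewise a Zfp780b site at chr7:27974015 was called in 7 libraries and its neighbour 33 bp away in the other 3. At Zfp607, sites 10 bp apart (chr7:27863527 and chr7:27863537) went to both 2iL libraries (0.117 and 0.102) and to A2iL replicate 5 and 2iL-F replicate 5 (0.085 and 0.112). Every library without the first of these had another Zfp607 call within 10 kb, so its presence in 2iL alone cannot be told apart from the spacing. The intronic Zfp850 site (chr7:28008352) was the other one confined to the pair of libraries of 1 condition. It had fractions of 0.032 and 0.026 in 2iL-F at 315 and 384 reads, with no neighbouring call in other libraries.

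Missense calls in ESC Zfp genes were mostly at low fractions. Of 19 coding ESC sites 9 were missense (47.4%) and 10 synonymous, and no stop was gained or lost. Missense sites were 53.9% of the 713 coding sites of other genes, so the share of distinct sites was similar. Of the 31 missense calls 30 had a fraction under 0.2, and their median was 0.101. Of these 31 calls 20 came from Zfp60 R40K and Zfp65 E16A. The synonymous calls had a median of 0.173, and 65.4% of all ESC Zfp calls were under 0.2. Outside segmental duplications, Zfp60 R40K and Zfp65 E16A were joined by 3 missense sites of 1 library each. Zfp964 T36I was called in 2iL replicate 3 from 23 of 113 reads (0.204, exact Clopper-Pearson 95% interval 0.134 to 0.29). Zfp354a H234N was called in 2iL-F replicate 3 from 4 of 21 reads (0.19, 0.0545 to 0.419). Zfp384 L164F was called in LCDM replicate 5 from 5 of 89 reads (0.056, 0.0185 to 0.126). These intervals cover counting error only, since reads without molecular identifiers are not independent molecules. Zfp354a, also known as Kid1, encodes a KRAB repressor first described in kidney, and H234N removes a histidine. Whether that histidine holds zinc was not determined. At Zfp964 an intronic site 36 bp away was called in 3 further libraries (0.081 to 0.128), so a call at that locus was not limited to 2iL replicate 3.

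The remaining 4 missense sites lay in segmental duplications. Zfp747 G153R was called in both 2iL libraries (0.039 and 0.041) and in LCDM replicate 3 (0.042) at 309 to 366 reads. Zfp729a G367R was called in SL replicate 3 (0.073), 2iL replicate 3 (0.098) and LCDM replicate 5 (0.114). Zfp808 I108T was called in 2iL-F replicate 5 (0.045), and Zfp85 L4P in 2iL replicate 3 (0.036). None of the 4 reached a fraction of 0.2 in any library, and no condition held both of its libraries and no other.

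Segmental duplications held 19 of the 49 ESC sites (38.8%), against 31.1% of the 2461 other non-intergenic sites, and in every case the annotated partner was on the same chromosome. The 5 Zfp600 sites matched partners at 98.4 to 98.8% identity and had site medians of 0.043 to 0.079. The partner segments started 0.842 to 1.45 Mb from the sites, which is not the distance to the matching base. Zfp747 had a partner that started only 0.00781 Mb from the site, at 94.8% identity, and a site median of 0.041. Zfp772, at 97.7% identity, had higher fractions, with 0.226 to 0.362 at its site of 7 libraries. Calls in duplications had a median fraction of 0.117 and those outside 0.195. Repeats held 21 of 49 sites (42.9%), against 20.8% of other sites.

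Compared within each library with the other non-intergenic calls, ESC Zfp calls lay more often in duplications, had lower allele fractions and changed the protein less often. The share in duplications was 35 to 50% of Zfp calls and 29.5 to 32.3% of other calls. The mean difference was 11.9 points (SD 4.69, higher in 10 of 10 libraries, exact two-sided sign-flip permutation test, adjusted p = 0.00391, Benjamini-Hochberg over 4 measures). With the Olfr, Vmn, Gm and Rik families left out of the other genes it was 24.3 points. The median fraction was 0.118 to 0.198 for Zfp and 0.25 to 0.286 for other calls, and the ranges did not overlap. The difference was -0.115 (SD 0.027, lower in 10 of 10, exact permutation, adjusted p = 0.00391) and -0.102 outside duplications. Median depth was 57 to 140 reads at Zfp calls and 52 to 69 at other calls, and the control had an alternative read at 11.8 to 22.2% of Zfp calls against 5.45 to 6.72%. The difference was -0.0794 among calls of at least 20 reads and -0.126 among calls with no alternative read in the control. The part of depth and of control reads in it was not tested further. The libraries share a control and most sites, so these p-values say only whether a sign recurs over the lists.

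The protein-changing share of coding calls was 25 to 54.5% for Zfp (2 to 6 calls a library) and 50.9 to 53.6% for other genes. It was lower by 10.3 points on average, in 9 of 10 libraries (difference -10.3, SD 9.84, exact permutation, adjusted p = 0.00781). With at least 20 reads the difference was -7.84 (exact permutation, adjusted p = 0.0625), and with at least 5 alternative reads -6.16 (adjusted p = 0.13). It was -4.28 outside duplications (lower in 6 of 10 libraries, higher in 4, exact permutation, adjusted p = 0.0498). With no alternative read in the control it was -21, and outside repeats -34.3. The control setting leaves out Zfp65 E16A, and the repeat setting leaves out both Zfp60 R40K and Zfp65 E16A, the missense sites of all 10 libraries. The share of calls at sites of all 10 libraries was 37.5% for Zfp and 40.5% for other genes on average. Every library holds the same 7 Zfp and 432 other sites of this kind by definition, so this share moves only with the total of calls, and its test over libraries is not used.

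**Figure D3:**
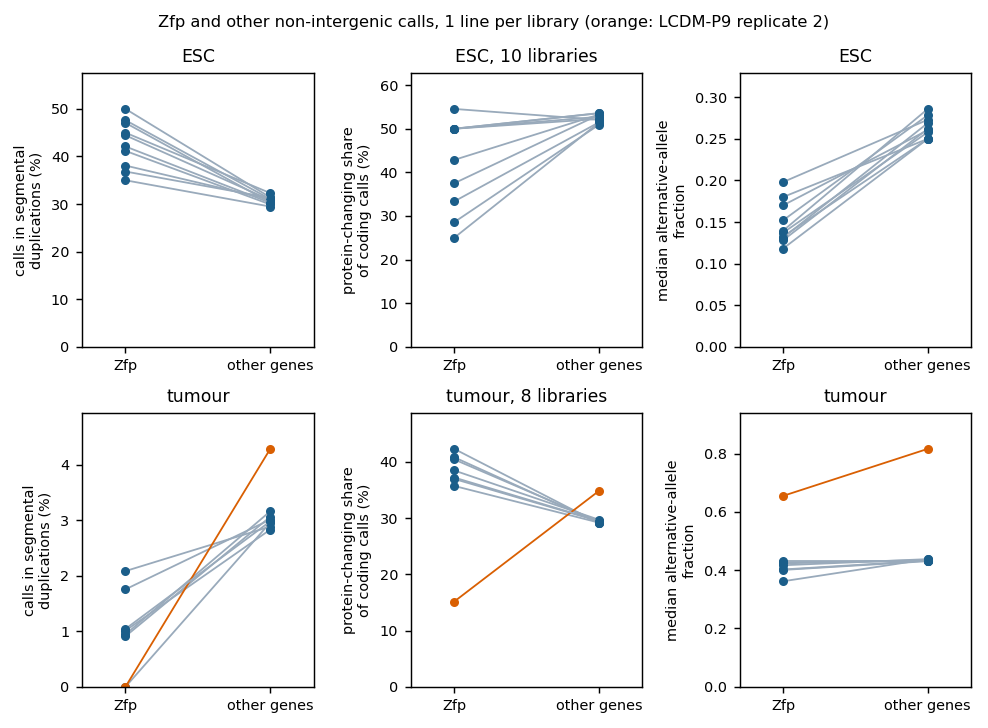
Zfp calls against other non-intergenic calls in each ESC library (top) and tumour library (bottom): percent in segmental duplications, percent of coding calls that change the protein, and median allele fraction. Each line joins the 2 values of 1 library and orange marks LCDM-P9 replicate 2; in ESCs the median fraction is 0.118 to 0.198 for Zfp and 0.25 to 0.286 for other genes.

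Of the tumour Zfp sites 96.2% had a dbSNP identifier, near the 95.3% of other non-intergenic sites. There were 110 Zfp calls in 2iL-P9, 96, 114 and 106 in A2iL-P9, 99 in A2iL-P14, 93 and 56 in LCDM-P9, and 96 in 2iL-F-P9. As a share of non-intergenic calls this was 0.966 to 1.18% in 7 tumours and 1.57% in LCDM-P9 replicate 2. The 3 A2iL-P9 tumours and the other 4 P9 tumours differed by -0.0712 points (exact two-sided permutation test over 35 splits, p = 0.886), and by 0.0669 without LCDM-P9 replicate 2 (20 splits, p = 0.5; the smallest p there is 0.1). Of the 185 sites 89 were intronic, 62 synonymous, 29 missense, 4 in the 3′ UTR and 1 in the 5′ UTR, with no stop gained or lost.

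LCDM-P9 replicate 2 had sites of its own, while the other 7 tumours shared most of their calls. Of the 131 sites in any of the 7, 74 were called in all 7, 41 in 2 to 6 and 16 in 1. Sites of exactly 7 tumours were 40% of Zfp sites and 49.2% of other non-intergenic sites, so such sharing was not particular to Zfp genes. LCDM-P9 replicate 2 had 56 sites, of which 54 were called in no other tumour. Its list was also short outside Zfp genes, with 3502 other non-intergenic calls against 9437 to 9966 in the other 7. Of these 3502 calls 360 (10.3%) were at sites of all 8 tumours, and of its 56 Zfp calls 1 was. The share of its other calls found in no other tumour was not computed, so the 54 are not read as particular to Zfp genes. The only site of all 8 was intronic, in Zfp287 (chr11:62724982), with fractions of 0.174 to 0.522 in the 7 and 0.923 in LCDM-P9 replicate 2. Of 47 genes 34 had sites in the 7 alone, 7 in LCDM-P9 replicate 2 alone and 6 in both. LCDM-P9 replicate 1, of the same label, had 93 Zfp calls, 74 of them at the sites of all 7.

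**Figure D4:**
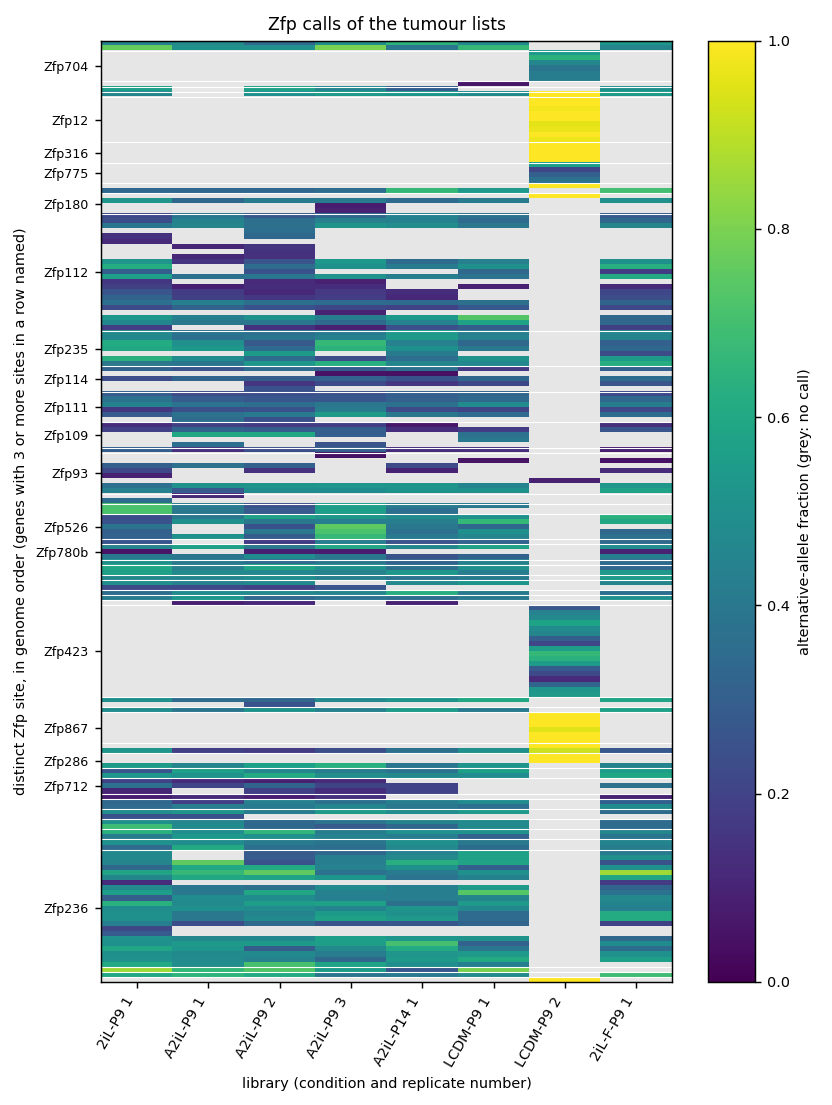
Alternative-allele fraction of every tumour Zfp call (colour, 0 to 1) by site (rows, in genome order, white lines between genes) and library (columns). Grey marks no call; 54 of the 56 sites of LCDM-P9 replicate 2 are called in no other tumour, and 27 of its 56 calls are at 0.9 or more.

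Zfp112 and Zfp236 led the tumour list with 23 sites each, followed by Zfp423 with 18, Zfp12 with 9, Zfp93 with 8, Zfp235 with 7, Zfp111, Zfp704 and Zfp867 with 6, and Zfp109, Zfp114 and Zfp526 with 5 each. Zfp236 alone accounted for 23 of the 27 sites of chromosome 18, 19 of them intronic, and 18 to 23 were called in each of the 7 tumours. Chromosome 7 held 80 sites (43.2%). The largest cluster, chr7:24085534-25225225, held 68 of the 185 sites (36.8%) in 11 of the 14 RefSeq Zfp genes there, from Zfp180 to Zfp526. It gave 41 to 54 calls in each of the 7 tumours and 2 in LCDM-P9 replicate 2, and 15 of its sites were missense. The clusters at chr13:67042248-67596764 (Zfp712, Zfp456, Zfp729b) and chr7:29829783-29934497 (Zfp790, Zfp27, Zfp74) held 6 and 4 sites.

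Fractions differed between sites of one gene. Of the 23 Zfp112 sites 10 had a site median of 0.3 or more and were called in a median of 7 tumours. Another 10 had a site median under 0.2 and were called in a median of 2.5. All 10 of the low sites and 3 of the 10 high ones had an alternative read in the blood control, never more than 1. The low Zfp112 sites included C215R, which removes a cysteine, with 0.161 in 2iL-P9 and 0.122 and 0.091 in A2iL-P9 replicates 2 and 3. Synonymous T444T had 0.324 to 0.431 in all 7. At Zfp236, by contrast, 19 of 23 sites had a median of 0.3 or more and 1 was under 0.2. Over the 131 sites of the 7 tumours 88 were at 0.3 or more and 27 under 0.2, and 34 and 14 of these had a control read.

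**Figure D5:**
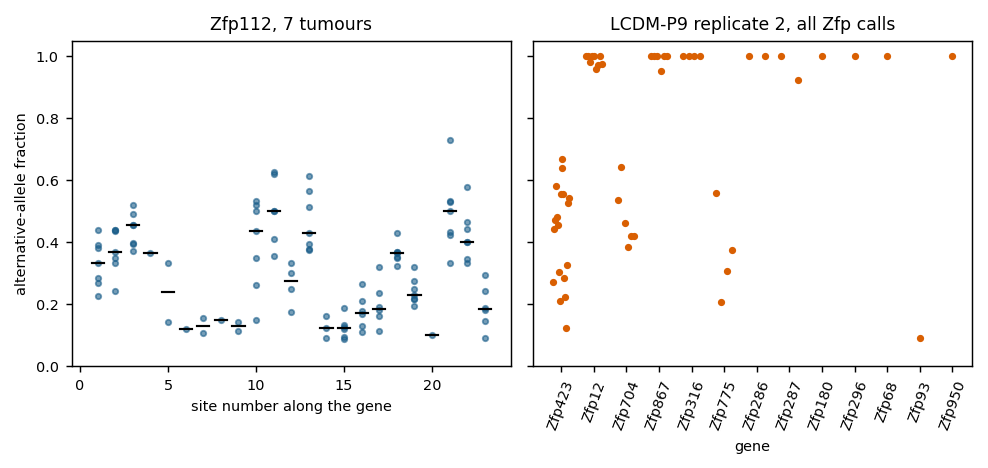
Left, alternative-allele fraction at the 23 Zfp112 sites in order along the gene; points are tumours with a call and bars are site medians. Right, all 56 Zfp calls of LCDM-P9 replicate 2 by gene; Zfp12, Zfp867 and Zfp316 lie at 0.952 to 1, and Zfp423 at 0.123 to 0.667.

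In LCDM-P9 replicate 2 the genes fell into groups at different fractions. All 9 Zfp12 calls were at 0.958 to 1, at depths of 34 to 100 reads. The 6 calls of Zfp867 were at 0.952 to 1 and the 4 of Zfp316 at 1, but on as few as 2 and 4 reads, with median depths of 22.5 and 5.5. The 18 calls of Zfp423, a regulator of brown and white fat cell identity and of the cerebellum, ran from 0.123 to 0.667, with 16 synonymous and 2 intronic. Zfp704 ran from 0.385 to 0.643 and Zfp775 from 0.208 to 0.558. In this tumour 27 of 56 calls were at 0.9 or more, and in the other 7 none of 714 calls were. The median fraction was 0.655, against 0.362 to 0.433 in the other 7. The other non-intergenic calls of this tumour also had a high median, 0.816, against 0.431 to 0.438.

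Of the 29 tumour missense sites 14 were called in all 7 tumours, in 13 genes, with site medians of 0.23 to 0.6. Zfp780b H158Y had 0.447 in 2iL-P9, 0.568, 0.4 and 0.597 in A2iL-P9, 0.459 in A2iL-P14, 0.574 in LCDM-P9 replicate 1 and 0.488 in 2iL-F-P9. Zfp526 H303L had 0.313 in 2iL-P9, 0.5, 0.294 and 0.667 in A2iL-P9, 0.412 in A2iL-P14, 0.462 in LCDM-P9 replicate 1 and 0.375 in 2iL-F-P9, at only 10 to 18 reads. Both changes remove a histidine, and Zfp111 Y204H, also in all 7 (0.161 to 0.423), adds one. Whether these residues hold zinc was not determined. At Zfp780b H158Y and Zfp526 H303L the A2iL-P9 values spanned those of the other 4 tumours. At Zfp111 Y204H they were 0.245, 0.25 and 0.423, above the other 4 tumours (0.161 to 0.234), which was noticed in the data and not tested. Another 5 missense sites were private to LCDM-P9 replicate 2, among them Zfp12 P138S (0.971) and Zfp867 L466S (1). One of the 5, Zfp93 I274V (0.09), was the only missense site without a dbSNP identifier.

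The 7 tumour sites without a dbSNP identifier had 17 calls with a median fraction of 0.09, against 0.426 for the 753 calls with one. One of them, Zfp114 C308C (chr7:24181154, C to T), was the only Zfp site called in both ESCs and tumours, and 11 genes had sites in both. Over all calls there were 4358 distinct ESC sites and 15030 tumour sites, 19181 together, so most sites of either set were absent from the other. The Zfp114 change keeps a cysteine. In ESCs it had 0.143 in SL replicate 5, 0.143 in 2iL replicate 3 and 0.188 in A2iL replicate 3. In tumours it had 0.154 and 0.219 in A2iL-P9 replicates 2 and 3, 0.16 in A2iL-P14, 0.217 in LCDM-P9 replicate 1 and 0.263 in 2iL-F-P9. Each call rested on 4 to 7 alternative reads, and neither control had one, of 57 reads in MEFs and 52 in blood.

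Compared within each tumour with other genes, Zfp calls were rarer in segmental duplications. The share was 0 to 2.08% for Zfp and 2.83 to 4.28% for other genes (difference -2.18, SD 1.07, lower in 8 of 8, exact sign-flip permutation, adjusted p = 0.0156), from 0 to 2 Zfp calls a tumour. With at most 1 call in 10 kb it was -1.16 (exact permutation, adjusted p = 0.354). Without LCDM-P9 replicate 2 it was -1.88 (exact permutation, adjusted p = 0.0312). The median fraction differed by -0.042 (SD 0.0537, lower in 7 tumours and equal in 1, exact permutation, adjusted p = 0.0208). Without LCDM-P9 replicate 2 the difference was -0.0249 (exact permutation, adjusted p = 0.0417). Over all 8 tumours the sign turned with at most 1 call in 10 kb (0.0496, exact permutation, adjusted p = 0.766). The protein-changing share was 35.7 to 42.3% for Zfp and 29.1 to 29.7% for other genes in the 7 tumours, and 15.2 and 34.8% in LCDM-P9 replicate 2. Over all 8 the difference was 5.85 points (SD 10.6, higher in 7 of 8, exact permutation, adjusted p = 0.164). Without LCDM-P9 replicate 2 it was 9.49 (higher in 7 of 7, exact permutation, adjusted p = 0.0312). With each site counted once over all 8 tumours, missense sites were 31.9% of 91 coding Zfp sites and 31.3% of 3497 others. These 91 include the 33 coding Zfp sites of LCDM-P9 replicate 2, of which 5 were protein-changing. The share over distinct sites of the 7 other tumours alone was not computed. The tumours share a control and 7 of them most sites, so these p-values say only whether a sign recurs over the lists. Sites of all 8 tumours were 1 Zfp site and 360 others, the same in every tumour by definition, so the test of their share over tumours is not used.

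A site was listed for 33 Zfp genes in ESCs and 47 in tumours. The RefSeq table held 416 Zfp symbols, with Zfp607 matched only as a synonym. The share of all genes with a site was not computed. These counts and those of the gene lists below therefore do not say whether such genes were called rarely. Of 28 Zfp genes listed for imprinting, retroelement silencing, ESC regulation, mRNA decay or lineage, 1 had an ESC site. This was Zfp429, also known as Rsl2, a KRAB repressor of liver genes, with synonymous P215P in A2iL replicates 3 and 5 (0.179 and 0.156) and 2iL-F replicate 5 (0.143). In tumours 4 of the 28 had 22 sites, none of them protein-changing: Zfp423 (18 sites), Zfp296 (2), Zfp352 (1) and Zfp516 (1). Zfp57, Zfp445, Zfp809 and Zfp42 had no call in any list, and the lists do not give the depth where no call was made. Of 32 cofactor and heterochromatin genes 3 had an ESC site each, with Dnmt3b K383R (in an enzyme that sets new DNA methylation) called in each of the 10 libraries at 0.168 to 0.261. In tumours 6 of the 32 had 18 sites, 1 of them missense: Trim28 P542L (chr7:13029558), in the 7 tumours other than LCDM-P9 replicate 2, at 0.404 to 0.552.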

How the data were processed

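BWA, SAMtools and Picard were run by the authors on mm10, per the submitters' processing notes; which program called SNVs is not stated there. The deposited lists give, per the file headers, 1 SNV a line for a library and its control, with reads per allele, base quality, depth and alternative-allele fraction, beside the authors' annotation of gene, region, consequence, segmental duplications, repeats and dbSNP build 142. Protein changes are those of the first transcript annotated.

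Sites were identified by chromosome, position and both bases (Python 3.11.15, numpy 2.4.6, pandas 2.3.3, scipy 1.17.1). Zfp calls were set against the other non-intergenic calls of the same library by exact sign-flip permutation tests. ESC conditions were compared by exact permutation F tests, and A2iL-P9 tumours with the other P9 tumours by an exact permutation test. The threshold was 0.05. Tests were checked on simulated data.

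The members and lists were chosen with earlier results of these data known. Genes named are, per set, the 10 with most sites, coding ESC changes outside duplications or shared by all libraries or by a condition alone, sites of both sets, the 3 largest clusters, members of the role list, and tumour protein changes without a dbSNP identifier. Other sites named in the text were chosen after their values were seen. A planned placing of changes within C2H2 fingers needs protein sequences and was not analysed here. Alternatives were depth of at least 20, at least 5 alternative reads, base quality of at least 30, no control alternative read, no repeats, no duplications, the first gene only, other comparison genes, 10 kb spacing and leaving out each library.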

Additional observations from a re-analysis of the deposited data

Results flagged for a closer look

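Of 12 measures over the libraries of a set 5 had 1 library far from the others by Dixon's test at the 95% level, which chance would flag in about 1 of 20 such groups. All 5 were LCDM-P9 replicate 2 among the 8 tumours, which span 5 labelled groups and are not replicates of each other. Its number of Zfp calls was 56, and the other tumours had 93 to 114. Its Zfp share of non-intergenic calls was 1.57%, above 0.966 to 1.18%. Its protein-changing share of coding Zfp calls was 15.2%, below 35.7 to 42.3%, from 5 of 33 coding calls. In this tumour 18 of the 56 Zfp calls were in 1 gene, Zfp423, and 16 of those 18 were synonymous. Its median allele fraction of Zfp calls was 0.655, above 0.362 to 0.433. Its share of Zfp calls at the site of all 8 tumours was 1.79%, which is 1 of 56 calls. Every tumour had 1 such Zfp call by definition, so this flag only repeats that of the number of calls.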

How the results depend on the processing

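The ESC differences in duplication share and in allele fraction kept sign and side of the threshold in all 7 and 8 alternatives (10.5 to 24.3 points, and -0.138 to -0.0794) and without any 1 library (11.2 to 12.7 points, and -0.12 to -0.112). The protein-changing share in ESCs did not pass at 20 reads (-7.84) or 5 alternative reads (-6.16), and ran from -11.7 to -8.47 without any 1 library. The ESC share at sites of all libraries, whose test is not used because each library holds the same such sites, was -2.97, reversed with 5 alternative reads (0.354) and outside duplications (2.72), was -2.24 at base quality 30, and ran from -5.45 to 1.65 without any 1 library. The range of ESC condition medians was 0.0475; it passed at 20 reads (0.048) and was 0.0425 to 0.0705 without any 1 library. Without any 1 library the range of condition means was 0.5 to 3.5 calls and 0.103 to 0.32 points.

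In tumours, 10 kb spacing gave -1.16 points for duplications and reversed the fraction difference (0.0496), which without a control read was -0.0488 (exact permutation, adjusted p = 0.117). Without the background of LCDM-P9 replicate 2 the protein-changing difference was 9.49, the share at common sites (-3.47 over all 8, its test likewise not used) -4.1, and A2iL-P9 against other P9 tumours 0.0669. Without any 1 tumour these ran from 4.79 to 9.49, -4.1 to -2.66 and -0.136 to 0.0669, the duplication share from -2.37 to -1.88 and the fraction from -0.048 to -0.0249. The cause of each change was not tested.

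With the replicate number as a block (replicate block), the ranges of condition means stayed at 2 calls, 0.144 points and 0.0475, with exact permutation p = 0.933, 0.967 and 0.35, so the pairing changed no call; the labels do not say what the numbers share. Chosen after seeing the data, counts of sites were also made: of 49 ESC sites 28 lay outside repeats and 30 outside duplications, and 7 and 8 of the 14 common loci were left. Lists hold only called sites, so a missing call may reflect low depth.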
